A study of Homo sapiens with 12 samples.

Results

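Glycolysis and hypoxia genes were followed by their RNA counts in a bladder cancer cell line. The group holds 37 named genes, taken by symbol from a table of 60666 genes, and 38 rows of the table carry these symbols because ALDOA appears in 2 of them. HT1376 is a human bladder carcinoma line. The CT line was a CRISPR control made with a guide against luciferase, called WT in the labels. The FOXP3 KO line was made by CRISPR against exon 2 of FOXP3, for which the study describes 2 guides. The study calls both lines clonal, and which guide and how many clones lie behind the libraries is not given. Each line was left untreated or received 100 ng/mL interferon gamma (IFNγ) for 48 hours, with 3 libraries numbered 11, 12 and 13 in each of the 4 groups. All 12 libraries come from the same parent line and both lines went through CRISPR editing and cloning. A difference between the lines therefore cannot be told apart from a difference between clones. The labels do not say what the numbers 11, 12 and 13 stand for, nor whether the libraries came from separate cultures, so p-values measure only the spread between these libraries.

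Glycolysis splits glucose into pyruvate in the cytosol, and lactate dehydrogenase then regenerates the NAD+ that the pathway needs. Cells short of oxygen lean on this route. The prolyl hydroxylases of the EGLN family normally mark the alpha subunit of hypoxia-inducible factor (HIF) for destruction by the VHL complex, and when oxygen falls HIF persists, pairs with ARNT and binds the hypoxia response element, whose core reads ACGTG or GCGTG. Glucose transporters, most glycolytic enzymes, the lactate exporter SLC16A3, the carbonic anhydrase CA9, the angiogenic factor VEGFA and the prolyl hydroxylase EGLN3 are well-known targets. Tumour cells often use glycolysis even with oxygen present.

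The core motif is shown here in the promoters of members on which the results turn, because HIF targets make up a large part of the group. RefSeq promoters (GRCh38.p14, from upstream of a start to just after it) were at hand for 33 of the 37 members, with 62 starts. SLC2A3, VEGFA, NDRG1 and BNIP3L were not among them. At least 1 core on either strand was present in 30 of the 33 genes, beside 52.4% of all 27305 genes with a promoter. PGAM1, EGLN3 and P4HA2 had none in this window. A gene with more starts has more windows to hold a core. The members had 62 promoters over 33 genes, and all genes 35116 over 27305. By promoter, a core was in 67.7% of the members' 62, beside 48.4% of all 35116. Of 37 promoters of other hypoxia-inducible genes outside the group, 89.2% held a core. The forkhead motif TAAACA was in 4 of the 62 promoters, or 6.45%, beside 12.3% of all, and TGTTTAC was in 2, or 3.23%, beside 3.42%. A match of letters does not show that a factor binds there. Each line below gives 30 bases before a start, read 5′ to 3′ on the strand of the gene, with each core in capitals, which is CACGT or CACGC where it lies on the other strand. The window of HK2 holds a pair of cores, that of PFKFB3 a core read on both strands, and the distance given is that of the core nearest the start within the window. The first 4 are the members with the smallest p-values for the replicate number below that have a core with room for the window, and the last 4 were picked as familiar targets.
PFKFB4, chr3:48556952-48556981, minus strand, core 166 bases before the start: tgagttgggcatGCGTGgtcggaggccggg
P4HA1, chr10:73096935-73096964, minus strand, core 86 bases before the start: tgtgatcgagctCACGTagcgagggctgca
HK2, chr2:74834067-74834096, plus strand, core 48 bases before the start: aatggGCGTGcgCACGTcactgatccggag
PFKFB3, chr10:6202813-6202842, plus strand, core 107 bases before the start: accctcctcccCACGTGgaagggggctggg
PGK1, chrX:78104053-78104082, plus strand, core 183 bases before the start: aaacggaagccgCACGTctcactagtaccc
ENO2, chr12:6914450-6914479, plus strand, core 118 bases before the start: acccgcgctcgtACGTGcgcctccgccggc
LDHA, chr11:18394478-18394507, plus strand, core 73 bases before the start: cgtgggttcccgCACGTccgccggcccccc
CA9, chr9:35673898-35673927, plus strand, core 18 bases before the start: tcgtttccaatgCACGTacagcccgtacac

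Library totals ran from 4490684 to 39270042 counts, and the library numbered 12 was the shallowest in 4 of the 4 groups. FOXP3 itself had 2 counts over the 6 CT libraries and 6 over the 6 KO libraries, with no library above 3, so its level cannot check the labels. Of 14 urothelial and epithelial markers, UPK3A alone stayed at 3 counts or fewer in each library, and their summed level lay between 4434 and 5723 CPM, the counts of a gene scaled to a common library size. ENO2, the gene given as the mark of this group, was counted in each of the 12 libraries. The library sizes behind CPM were scaled by the trimmed mean of M-values (TMM). CA12, with at most 2 counts in a library, and BNIP3, also with at most 2, fell below the filter of 10 counts, which leaves 35 members tested. BNIP3 has 39 pseudogene rows with 139 counts in all against its own 5. ALDOA has a level that is uncertain, because its gene (chr16:30064164-30070457) shares 42.8% of its exon bases on the same strand with a readthrough row of the same symbol (chr16:30053123-30070414), and only the former is used below. CA9, ANKRD37 and GAPDH share 35.7%, 40.3% and 17.6% of their exon bases with a gene on the other strand.

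Per kilobase of exon, the members spanned a wide range of levels. In untreated CT cells GAPDH, which oxidises glyceraldehyde phosphate, stood at 557 ± 80.9 CPM per kilobase (SD, n = 3), and LDHA, which turns pyruvate into lactate, at 551 ± 120.2. These do not differ beyond their spread. The enolase ENO1 followed at 354 ± 32.8 and the pyruvate kinase PKM at 157 ± 17.3, each below the previous gene by more than the spread. Far lower were the regulator PFKFB4 at 2.89 ± 3.14, the hypoxia gene ANKRD37 at 3.14 ± 4.06 and the second enolase ENO2 at 3.44 ± 1.84, whose spreads overlap. CA9 had 0, 4 and 0 counts in the libraries numbered 11, 12 and 13 of untreated CT. For many members the SD was as large as the mean, and the replicate number below shows where that spread lies.

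**Figure D1:**
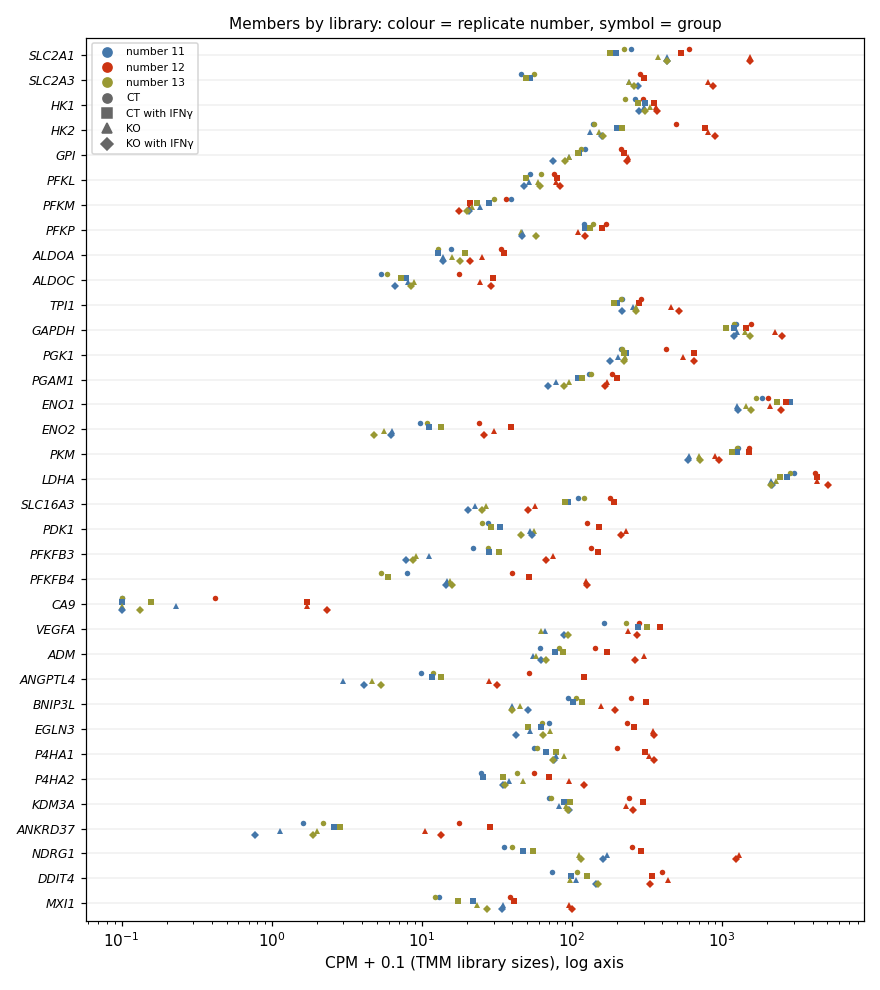
CPM plus 0.1 on a log axis for the 35 tested members in the 12 libraries, coloured by replicate number and shaped by group. Within a symbol shape, red (number 12) lies to the right of blue and olive in all 4 groups for 33 of the 35 genes, the exceptions being ENO1 and PFKM.

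The library numbered 12 was the highest of its group in all 4 groups for 33 of the 37 members, and in 3 groups for ENO1. The share of all genes for which this holds is not given, so this count has no baseline. Together the 37 members took between 1.49% and 2.13% of the counts of the libraries numbered 12, and between 0.846% and 0.994% of those numbered 11 and 13, with no overlap. PDK1, the kinase that shuts pyruvate dehydrogenase and so keeps pyruvate out of mitochondria, had 27.6, 126.5 and 24.9 CPM in untreated CT libraries 11, 12 and 13. In CT with IFNγ it had 32.8, 152.3 and 28.9 CPM. In untreated KO it had 52.8, 229.9 and 56.0 CPM, and in KO with IFNγ 54.1, 212.9 and 45.3 CPM. In bulk RNA, more cells using a gene and more RNA per cell cannot be told apart. Number 12 was thus far above its partners in each group, while 11 and 13 lay close together. The replicate number was then fitted as a factor over all 12 libraries beside line and IFNγ (edgeR quasi-likelihood F-test, Benjamini-Hochberg adjusted). Its p-value covers number 12 against the mean of 11 and 13 and number 13 against 11 together. The log2 differences and SE given are for number 12 against that mean, and their sign sets what is called higher or lower. Number 12 exceeded the mean of 11 and 13 by 2.19 on the log2 scale for PDK1 (SE 0.0711). The edgeR adjusted p of the factor was 2.7e-17 for PDK1, which ranked 1 of 27806 genes.

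By this edgeR test 34 of the 35 tested members depended on the replicate number, and all 34 were higher in number 12. Over all genes 10.6% depended on the number, and 4.3% did so with number 12 higher. The median of the members was 1.57 on the log2 scale and that of all genes was -0.04. Of the 10 genes with the smallest p-values 8 were members, and of the first 25 genes 15 were. The members were chosen with earlier results of these data known, so these ranks are a description and no independent support. The libraries were uneven in depth, number 12 being the shallowest of each group. With each library thinned to the total of the shallowest the test called 34 members. The part of depth in the result was not tested beyond this fit with equal totals. The share of mitochondrial counts lay between 3.51% and 4.49% in number 12 and between 3.10% and 5.11% in the others. These ranges overlap, and their part in the result was not tested. The nuclear RNA MALAT1 took its highest share in number 12 of each group, at 3.11%, 3.88%, 5.12% and 5.27% of counts in CT, CT with IFNγ, KO and KO with IFNγ, against at most 2.75%, 2.90%, 5.05% and 5.17% in numbers 11 and 13, and its part in the result was not tested. What number 12 denotes in the laboratory, and whether oxygen, density, medium or time of harvest differed, was not tested.

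The glucose transporters were among the members higher in number 12. SLC2A3, a high-affinity glucose transporter, was higher in number 12 by 2.13 (SE 0.0967) on the log2 scale, and SLC2A1, the common transporter, by 1.67 (SE 0.0717). HK2, the inducible hexokinase, had 137.8, 495.5 and 140.7 CPM in libraries 11, 12 and 13 of untreated CT and 200.6, 767.4 and 216.2 CPM with IFNγ. In KO it had 130.7, 807.6 and 150.4 CPM untreated and 157.6, 898.2 and 160.5 CPM with IFNγ. HK2 was higher in number 12 by 2.20 (SE 0.0841), whereas HK1, the constitutive hexokinase, was higher by 0.27 (SE 0.0655, edgeR adjusted p = 0.0152).

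The called enzymes between hexokinase and pyruvate ranged from 0.40 for PKM to 1.90 for ENO2, which is described by library below. Phosphoglucose isomerase GPI was higher in number 12 by 1.18 and the kinase PGK1 by 1.41, with TPI1 at 0.73, PGAM1 at 0.85, GAPDH at 0.59, ENO1 at 0.43 and PKM at 0.40 on the log2 scale. The phosphofructokinases PFKP and PFKL were higher by 0.82 and 0.55. PFKM, the muscle form, was the 1 tested member not called, at -0.12 (SE 0.101, edgeR adjusted p = 0.29). The aldolase ALDOC was higher by 1.79 and ALDOA, with its uncertain level, by 0.91.

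ENO2 had 9.66, 23.8 and 10.7 CPM in libraries 11, 12 and 13 of untreated CT. With IFNγ the CT libraries had 11.0, 39.0 and 13.2 CPM. Untreated KO libraries had 6.21, 30.2 and 5.47 CPM, and KO libraries with IFNγ 6.08, 25.8 and 4.66 CPM. Number 12 was the highest in each group and exceeded the mean of 11 and 13 by 1.90 on the log2 scale (SE 0.146, edgeR adjusted p = 1.3e-09). ENO2 and ENO1 catalyse the same step, and ENO1 was far less uneven.

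The regulators of fructose 2,6-bisphosphate, a potent activator of phosphofructokinase, were among the most uneven members. PFKFB4 had 7.90, 39.7 and 5.26 CPM in libraries 11, 12 and 13 of untreated CT and 5.81, 51.9 and 5.87 CPM with IFNγ. In KO it had 14.6, 124.1 and 15.2 CPM untreated and 14.3, 125.2 and 15.9 CPM with IFNγ. Its log2 difference was 2.97 (SE 0.0997, edgeR adjusted p = 3.2e-17). PFKFB3 had 22.0, 134.5 and 27.6 CPM in untreated CT, 28.0, 148.2 and 32.6 CPM in CT with IFNγ, 11.0, 74.7 and 8.98 CPM in untreated KO and 7.69, 67.3 and 8.64 CPM in KO with IFNγ. Its difference was 2.66 (SE 0.101, edgeR adjusted p = 3.2e-16), so both enzymes were several-fold above the partner libraries at number 12 in each group.

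At the lactate end, SLC16A3, which carries lactate out of the cell, was higher in number 12 by 1.02 and LDHA by 0.88 on the log2 scale. CA9, which acidifies the space outside hypoxic cells and is given by library after its values were seen, had 4, 7, 18 and 21 counts in the libraries numbered 12 of CT, CT with IFNγ, KO and KO with IFNγ. The other 8 libraries had between 0 and 3 counts of CA9. Its fitted difference of 5.28 (SE 0.803) depends on how counts of 0 are treated and is no bound.

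Among oxygenases, P4HA1, a prolyl hydroxylase that matures collagen, had 56.0, 199.9 and 58.3 CPM in libraries 11, 12 and 13 of untreated CT and 67.2, 307.9 and 78.3 CPM with IFNγ. It had 78.0, 326.0 and 88.3 CPM in untreated KO and 75.3, 352.2 and 74.1 CPM in KO with IFNγ. The log2 difference for P4HA1 was 2.03 (SE 0.0697, edgeR adjusted p = 3.8e-17). EGLN3, itself an oxygen sensor, was higher by 2.32, the histone demethylase KDM3A by 1.57 and P4HA2 by 1.25.

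NDRG1 is a stress-response gene that hypoxia induces. In untreated CT it had 35.2, 252.5 and 40.0 CPM in libraries 11, 12 and 13, and with IFNγ 46.9, 288.3 and 54.9 CPM. In untreated KO it had 171.1, 1294 and 111.6 CPM, and with IFNγ 161.3, 1242 and 114.3 CPM. Its difference was 2.93 on the log2 scale (SE 0.102, edgeR adjusted p = 4.3e-17). Among the secreted factors ANGPTL4, which inhibits lipoprotein lipase, was higher in number 12 by 2.83, adrenomedullin (ADM) by 1.68 and VEGFA by 1.13. ANKRD37 was higher by 3.28, the mTOR inhibitor DDIT4 by 1.78, the mitophagy receptor BNIP3L by 1.71 and the MYC antagonist MXI1 by 1.57. Libraries 13 and 11 differed little beside this: among the 35 members the log2 difference of 13 minus 11 ran from -0.64 for CA9 to 0.64 for ANKRD37.

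**Figure D2:**
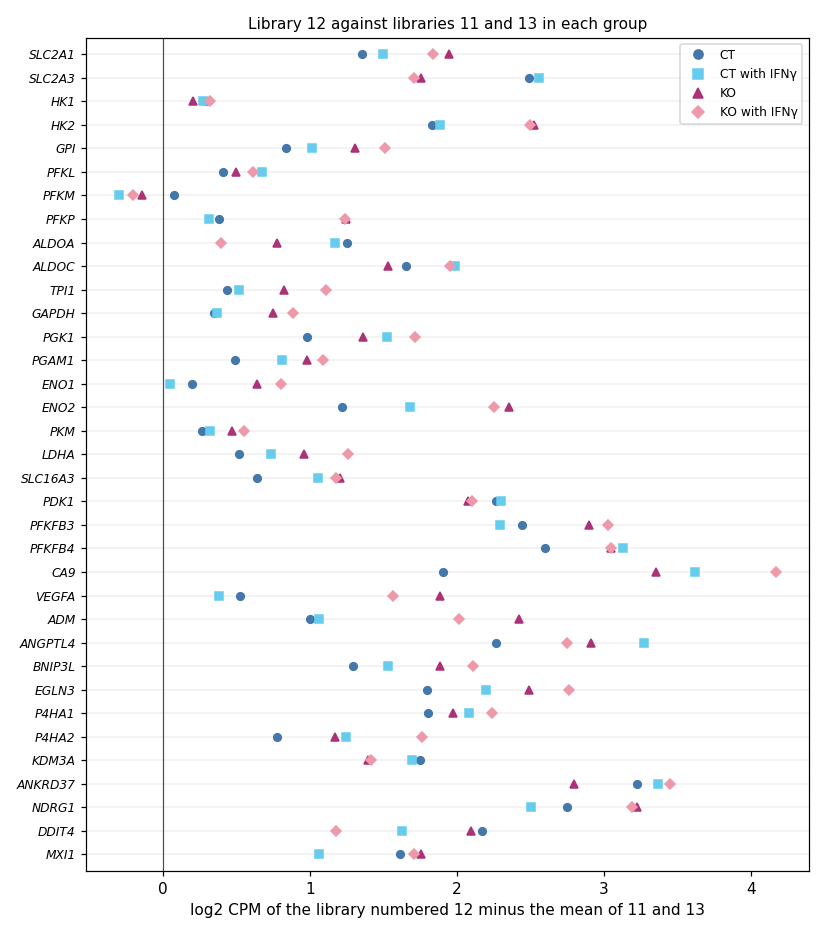
Log2 CPM (prior count 2) of library 12 minus the mean of libraries 11 and 13, for each tested member in each of the 4 groups. All points but 3 of PFKM lie to the right of 0, and for VEGFA both KO values, 1.89 and 1.57, lie to the right of both CT values, 0.52 and 0.38.

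The size of the number 12 difference varied between the lines for some members. For VEGFA it was 0.52 in untreated CT and 0.38 in CT with IFNγ, against 1.89 in untreated KO and 1.57 in KO with IFNγ. ADM with IFNγ showed 1.06 in CT against 2.02 in KO. SLC2A3 went the other way, at 2.49 and 2.55 in CT against 1.76 and 1.71 in KO. These are differences in log2 CPM between single libraries, and whether they differ between the lines was not tested.

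Other hypoxia-inducible genes outside the group were also uneven by number. Of 38 such genes tested by edgeR, 29 were higher in number 12 and the other 9 did not pass, with a median of 1.16 on the log2 scale. Over all genes 10.6% depended on the number, and 4.3% did so with number 12 higher. The lists of this paragraph were chosen with earlier results of these data known, and whether they depart from these shares was not tested. Of 17 tested genes of the oxygen sensing machinery, 2 were higher and 3 lower. Chosen after their values were seen, these were EGLN1, the main HIF prolyl hydroxylase, at 1.33, ARNT2 at 1.24, HIF1A at -0.48, EPAS1 at -0.27 and the VHL partner ELOC at -0.27. Of 38 other enzymes of glucose use, 5 were higher and 4 lower, with a median of -0.07. Named after their values were seen, the pyruvate dehydrogenase kinase PDK3 was higher by 1.66 and PDK4 lower by 2.75, PDK4 being known as a fasting and fatty-acid responsive kinase.

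The comparison of FOXP3 KO with CT asks what differs where the FOXP3 locus is disrupted. In untreated cells by the edgeR test on 6 libraries, 0 of 35 tested members were higher in KO and 4 were lower, with 5 higher at an unadjusted p under 0.05 and 0 by DESeq2. Over all genes 14% were higher and 18.2% lower. With the replicate number as a block the same test called 12 higher and 9 lower, beside 15.9% and 20.6% of all genes. Whether the numbers pair libraries across the untreated lines depended on the genes taken. Same-numbered libraries correlated at 0.0525 to 0.151 over the genes tested, where different numbers reached 0.0584. Over genes with at least 100 counts same-numbered libraries correlated at 0.135 to 0.320, where different numbers reached 0.113. The shares of mitochondrial counts, 3.10% to 3.63% in the 6 CT libraries and 4.08% to 5.11% in the 6 KO libraries, and of MALAT1, 2.39% to 3.88% and 4.47% to 5.27%, did not overlap between the lines, and their part in the line differences was not tested. SLC16A3 had 109.9, 179.4 and 120.3 CPM in CT libraries 11, 12 and 13 and 22.6, 56.9 and 26.8 CPM in KO libraries. The groups do not overlap, and the log2 fold change was -1.94 (SE 0.318, edgeR adjusted p = 0.00083). PFKP, the platelet phosphofructokinase, had 120.8, 168.5 and 138.9 CPM in CT and 46.5, 109.7 and 45.8 CPM in KO, again without overlap, at -1.07 (SE 0.298, edgeR adjusted p = 0.0184). The PFKP call was lost without CT library 12 or 13 or KO library 11 or 13, at edgeR adjusted p from 0.0623 to 0.102. PKM fell by 0.86 on the log2 scale (SE 0.150) and PFKM fell by 0.65 (SE 0.145). Leaving out CT library 12 gave 7 higher, KO library 13 gave 3 higher and KO library 11 gave 1 higher, while leaving out KO library 12 gave 12 lower. Shares of all genes are not given for these fits. Leaving out 1 library numbered 12 leaves that of the other line unmatched. PFKFB4 was at 3.02 without CT library 12 and at -0.15 without KO library 12, against 1.22 without both. The median over the members was 0.16 and over all genes -0.02.

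Since the libraries numbered 12 stood apart in each group, the comparison was also made without them, a choice made after the data were seen that leaves 2 libraries a group. In that edgeR fit 9 of 34 tested members were higher in KO and 12 lower, beside 14.4% and 17.8% of all genes. CA9 was then below the filter. The libraries left out are those in which these members stood apart, so the fall in their SE is partly built in. The shares of all genes are therefore no even baseline for these counts. The same limit holds for the counts with the replicate block and for those without number 12 below. The SE of SLC2A3, for example, was 0.673 with all libraries and 0.128 without number 12. With all libraries PFKP, PKM, PFKM and SLC16A3 were the members that passed in untreated cells.

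Both glucose transporters were higher in KO once number 12 was left out. SLC2A3, described by library after its values were seen, had 45.9, 284.2 and 55.7 CPM in CT libraries 11, 12 and 13 and 241.0, 810.6 and 238.8 CPM in KO libraries. The groups overlap only through CT library 12. The log2 fold change was 1.76 (SE 0.673, edgeR adjusted p = 0.0687) with all libraries and 2.26 (SE 0.128, adjusted p = 7.5e-08) without number 12. SLC2A1 was at 1.16 (SE 0.520, adjusted p = 0.12) with all and 0.80 (SE 0.123, adjusted p = 0.00032) without. In each replicate number KO was above CT for both transporters, by 1.51 to 2.39 on the log2 CPM scale for SLC2A3 and by 0.75 to 1.37 for SLC2A1.

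The glycolytic enzymes split. Without number 12, HK1 at 0.39 and TPI1 at 0.31 on the log2 scale were higher in KO, while PFKP at -1.47, PKM at -0.93, PGAM1 at -0.58, PFKM at -0.57, ENO1 at -0.37 and ENO2 at -0.78 were lower. HK2, PGK1, GAPDH, GPI, PFKL, ALDOA and ALDOC did not pass the threshold, with values from -0.30 for GPI to 0.61 for ALDOC. At the pyruvate branch PDK1 was higher in KO by 1.07 (SE 0.129), and SLC16A3 was lower at -2.20 (SE 0.131) and LDHA at -0.38 (SE 0.113). The regulators PFKFB4 and PFKFB3 went opposite ways, at 1.22 (SE 0.240) and -1.29 (SE 0.190). With all libraries HK1 was at 0.35, TPI1 at 0.48, PGAM1 at -0.36, LDHA at -0.18, PFKFB4 at 1.59 and PFKFB3 at -0.96. PDK1 was at 0.94 (SE 0.670, edgeR adjusted p = 0.32), ENO1 at -0.20 (SE 0.171, adjusted p = 0.42) and ENO2 at -0.0781 (SE 0.587, adjusted p = 0.94). Between the libraries numbered 12 KO was above CT by 0.34 in log2 CPM for ENO2, 0.0519 for ENO1 and 0.046 for LDHA, while numbers 11 and 13 had KO below CT for these genes.

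The hypoxia members also split. Without number 12, NDRG1 was higher in KO by 1.93 (SE 0.179, edgeR adjusted p = 5.1e-06) on the log2 scale, and with all libraries its value was 2.29 (SE 0.942, adjusted p = 0.0878). MXI1 was higher by 1.24 and P4HA1 by 0.56, at 1.31 and 0.67 with all libraries. VEGFA, described by library after its values were seen, had 164.2, 278.1 and 227.8 CPM in CT libraries 11, 12 and 13 and 66.1, 236.5 and 61.8 CPM in KO. KO library 12 lies within the CT range. VEGFA was at -0.86 (SE 0.437, adjusted p = 0.16) with all libraries and at -1.60 (SE 0.150, adjusted p = 5.7e-06) without number 12. ANGPTL4 at -1.53 and BNIP3L at -1.23 were also lower, at -1.07 and -0.88 with all libraries, and EGLN3, P4HA2, KDM3A, DDIT4, ADM and ANKRD37 did not pass the threshold, with values from -0.33 for ADM to 0.34 for P4HA2.

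**Figure D3:**
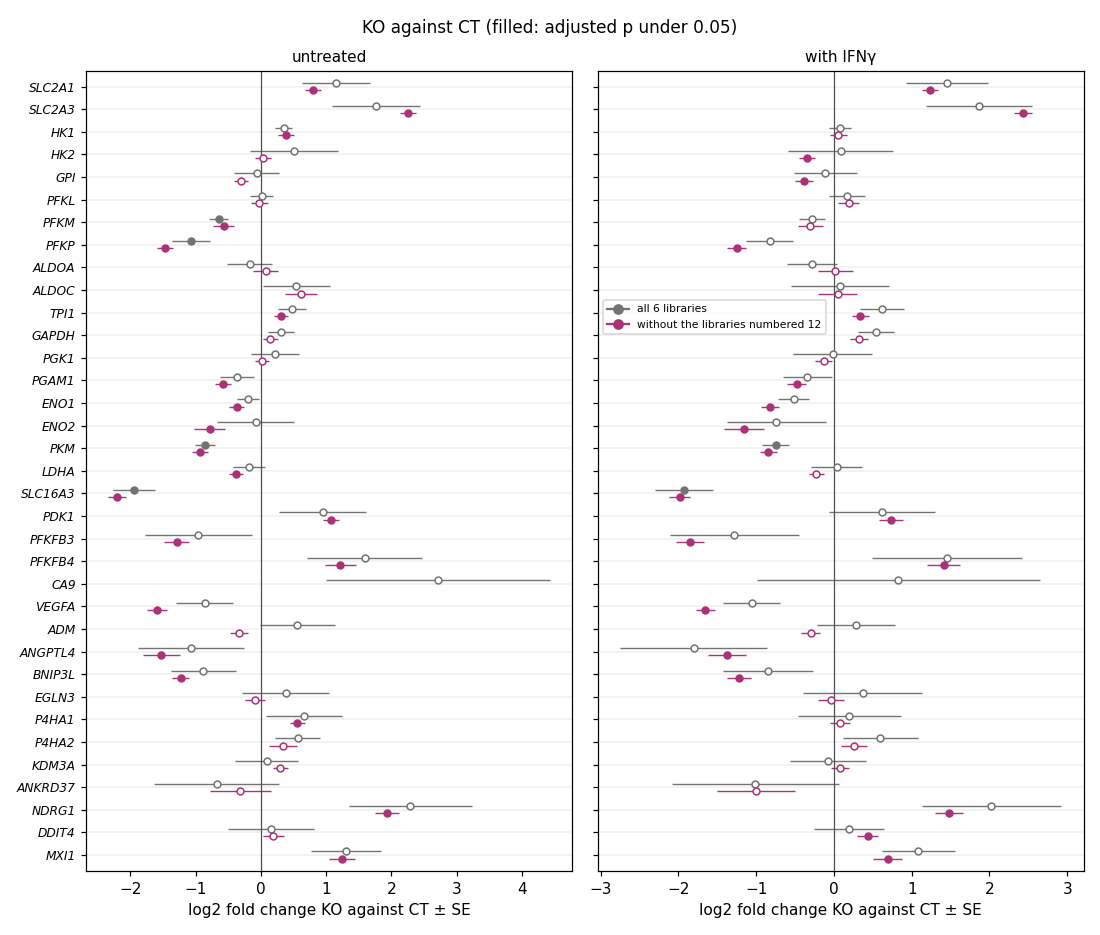
Log2 fold change of KO against CT with its SE for each tested member, untreated on the left and with IFNγ on the right, with all 6 libraries in grey and without the libraries numbered 12 in purple, filled where the adjusted p was under 0.05. The bars are shorter without number 12, as for untreated SLC2A3 from 0.673 to 0.128, except for untreated PFKM, from 0.145 to 0.165, and SLC16A3 is filled in each of the fits shown.

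With IFNγ the comparison of KO with CT was made in the same way. By the edgeR test on 6 libraries 0 of 35 members were higher, with 5 at an unadjusted p under 0.05 and 0 by DESeq2, and 2 were lower, PKM at -0.75 (SE 0.174, adjusted p = 0.0077) and SLC16A3 at -1.93 (SE 0.372, adjusted p = 0.0025), beside 13.2% and 15.7% of all genes. With the replicate block 9 were higher and 11 lower, beside 16% and 17.9% of all genes. Same-numbered libraries correlated here at 0.0608 to 0.135 over the genes tested, where different numbers reached 0.0763. SLC16A3 had 94.5, 191.3 and 89.8 CPM in CT libraries 11, 12 and 13 with IFNγ and 20.1, 51.0 and 25.1 CPM in KO libraries, which do not overlap. Leaving out CT library 12 gave 4 higher, KO library 11 3 higher, KO library 13 2 higher and KO library 12 12 lower, with no shares of all genes given. PFKFB4 was here at 3.19 without CT library 12 and at -0.32 without KO library 12, against 1.41 without both. Without number 12, 8 of 34 members were higher and 12 lower, beside 14.9% and 17.5% of all genes. Of the members called without number 12 in each state, 7 were higher in both, out of 9 and 8 (SLC2A3, NDRG1, TPI1, PFKFB4, SLC2A1, MXI1 and PDK1) and 10 were lower in both, out of 12 and 12 (PFKP, PKM, ENO1, BNIP3L, ENO2, VEGFA, SLC16A3, ANGPTL4, PFKFB3 and PGAM1). HK2 at -0.35 and GPI at -0.38 were called lower and DDIT4 at 0.43 higher with IFNγ and did not pass in the untreated fit, and with all libraries they were at 0.0858, -0.11 and 0.19. The interaction test given below called none of them. The untreated libraries and those with IFNγ are separate, but the lines are the same. SLC2A3 was at 2.44 (SE 0.116) and PFKFB3 at -1.85 (SE 0.178), the ends of the range among members other than SLC16A3 at -1.98.

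Genes outside the group are read here beside the 14% higher and 18.2% lower over all genes in the untreated lines, and whether a list departs from those shares was not tested. Of 17 tested genes of the oxygen sensing machinery 4 were higher in KO and 2 lower: the 4 largest were ARNT2 at -2.82 (SE 0.421), EPAS1, which encodes HIF-2α, at 2.11 (SE 0.132), ELOC at -1.27 (SE 0.176) and VHL at 0.62 (SE 0.115). Of 37 other enzymes of glucose use 8 were higher and 10 lower, led by the transporters SLC2A10 at -3.76 and SLC2A6 at -3.21, the hexokinase-like HKDC1 at -2.30 and the phosphatase PDP1, which reactivates pyruvate dehydrogenase, at -1.85. Of 36 other hypoxia-inducible genes 5 were higher and 9 lower, led by PPP1R3C at -4.84, STC1 at -3.31, VLDLR at -2.96 and LOXL4 at 2.77. Markers of other cell types were low: 7 immune, endothelial and fibroblast markers summed to 28.9 to 33.8 CPM in untreated CT and 8.87 to 10.8 CPM in untreated KO, with CD68 at 3 counts or fewer in each library, and their part in the results was not tested.

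IFNγ, a cytokine of T and NK cells, was added for 48 hours. In CT 1 of 35 members rose and 0 fell by the edgeR test without a block, with 1 lower at an unadjusted p under 0.05 and 0 by DESeq2, beside 3.53% and 1.82% of all genes. It was ENO1, with 1848, 2017 and 1675 CPM in untreated libraries 11, 12 and 13 and 2846, 2671 and 2333 CPM with IFNγ, which do not overlap. The summed immune, endothelial and fibroblast markers lay at 28.9 to 33.8 CPM in untreated CT and at 19.2 to 21.0 CPM in CT with IFNγ, also without overlap, and their part in the result was not tested. The log2 fold change of ENO1 was 0.53 (SE 0.104, adjusted p = 0.0116), or 1.44-fold. The call was lost without CT library 13 (log2 fold change 0.46, edgeR adjusted p = 0.062) and with all 12 libraries in 1 fit (adjusted p = 0.24), and without CT library 12 there were 2 calls. Without number 12 ENO1 and HK2 rose and none fell, beside 3.32% and 1.61% of all genes, HK2 by 0.60 (SE 0.0946, edgeR adjusted p = 0.00715).

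Because same-numbered libraries of a line shared their deviations, IFNγ was also tested with the number as a block. In that edgeR fit 17 members rose in CT and 2 fell, beside 8.67% and 9.88% of all genes, and with bias-adjusted deviance 12 rose and 2 fell. HK2 at 0.62, VEGFA at 0.59, ENO1 at 0.53, P4HA1 at 0.47 and KDM3A at 0.38 on the log2 scale rose in it, and SLC2A1 at -0.25 and PFKM at -0.49 fell. The HK2 difference was 0.54, 0.63 and 0.62 in log2 CPM for numbers 11, 12 and 13. ENO2 rose by 0.43 (SE 0.150, adjusted p = 0.0235) in the block fit, and its differences were 0.19, 0.71 and 0.30 in log2 CPM. Of the 13 tested hypoxia members 9 rose in the block fit, among them ADM, MXI1, NDRG1, ANGPTL4, ANKRD37 and BNIP3L. PFKFB4, SLC2A3, DDIT4, P4HA2, PKM, LDHA, GAPDH and TPI1 were not called, with values from -0.09 for GAPDH to 0.16 for DDIT4.

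In KO, by the edgeR test without a block, 0 of 35 members rose or fell, with 0 at an unadjusted p under 0.05 and 0 by DESeq2, beside 0.978% and 0.00414% of all genes. Without number 12, VEGFA at 0.53 (SE 0.105) and DDIT4 at 0.54 (SE 0.101) rose, beside 1.28% and 0.0387% of all genes. DDIT4, described by library after its values were seen, had 106.7, 435.4 and 97.3 CPM in untreated KO libraries 11, 12 and 13 and 145.4, 333.1 and 148.6 CPM with IFNγ, so number 12 went down while the others went up. With the block 5 members rose and 0 fell, beside 3.92% and 1.6% of all genes. They were VEGFA at 0.42, DDIT4 at 0.23, HK2 at 0.19, SLC2A3 at 0.16 and ENO1 at 0.15, and with bias-adjusted deviance 1 member was called.

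The test of whether IFNγ acted differently in the lines called 0 of 35 members by edgeR, with 0 at an unadjusted p under 0.05 and 0 by DESeq2, beside 0.111% of all genes. With the block it called 0 members too, with 10 of 35 at an unadjusted p under 0.05 and a smallest adjusted p of 0.0663. This block fitted the same effect of the number in both lines. A number effect that differs between the lines therefore stays in the spread of this fit and can hide a difference. A fit with a separate number effect in each line was not run. Without the block the interaction was -0.36 (SE 0.295) for ENO1 and -0.46 (SE 1.11) for HK2, with KO lower. With the block it was -0.38 (SE 0.164) for ENO1, -0.44 (SE 0.164) for HK2 and -0.51 (SE 0.137) for P4HA1.

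**Figure D4:**
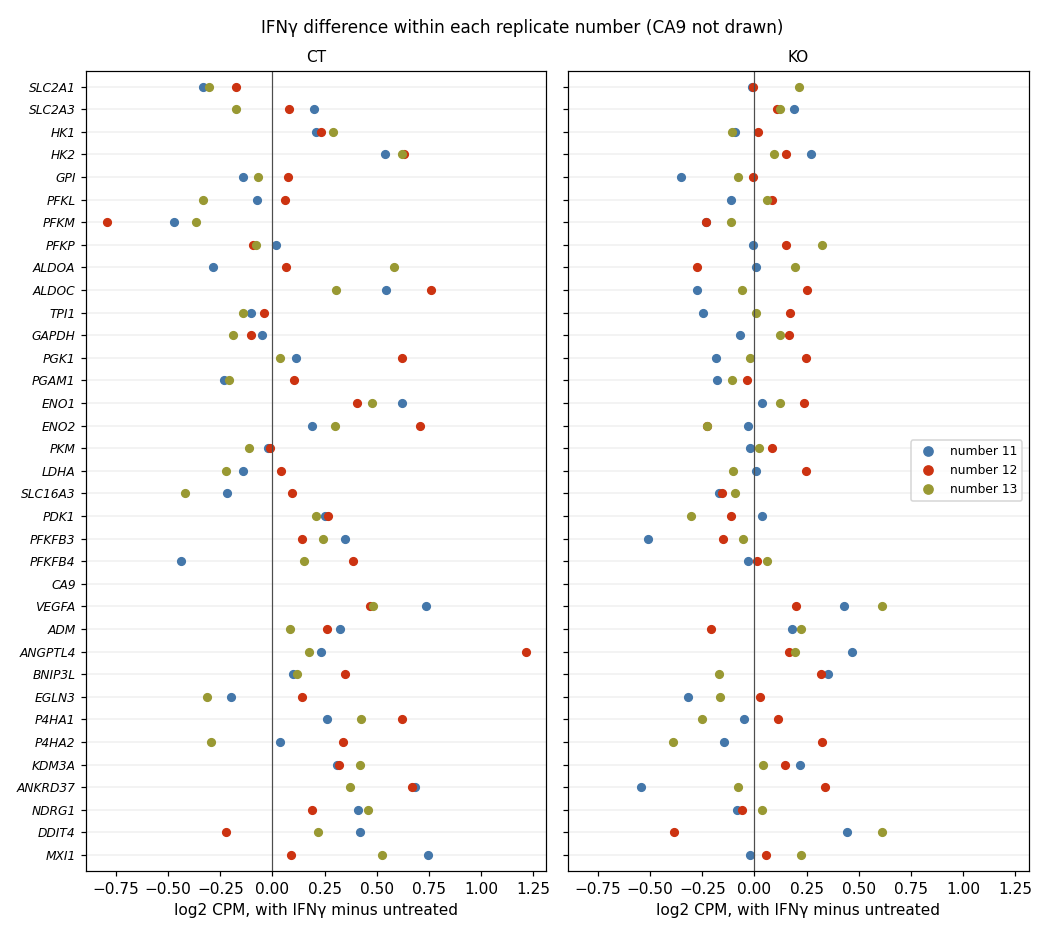
Difference in log2 CPM between IFNγ and untreated libraries of the same number, in CT on the left and KO on the right, for the 34 tested members other than CA9. For HK2 and VEGFA all 3 differences in CT lie above 0, from 0.47 to 0.74 for VEGFA, and in KO they also lie above 0, from 0.20 to 0.61 for VEGFA and from 0.0936 to 0.27 for HK2.

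Isozyme shares followed the replicate number and the line. HK1 made up 52.0% to 66.3% of hexokinase CPM per kilobase in libraries numbered 11 and 13 and 26.0% to 34.0% in those numbered 12, with HK2 taking nearly all the rest. PFKP made up 58.1% to 65.9% of the phosphofructokinases in CT libraries and 38.1% to 57.2% in KO libraries, and PFKL made up 21.6% to 27.6% in CT and 34.0% to 42.8% in KO. SLC2A3 made up 14.5% to 34.1% of the pair SLC2A1 and SLC2A3 in CT libraries and 32.4% to 37% in KO libraries. ENO1 made up at least 98.1% of the enolases and LDHA at least 99.4% of the lactate dehydrogenases. These shares are a description with no test and use exon lengths of the annotation.

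**Figure D5:**
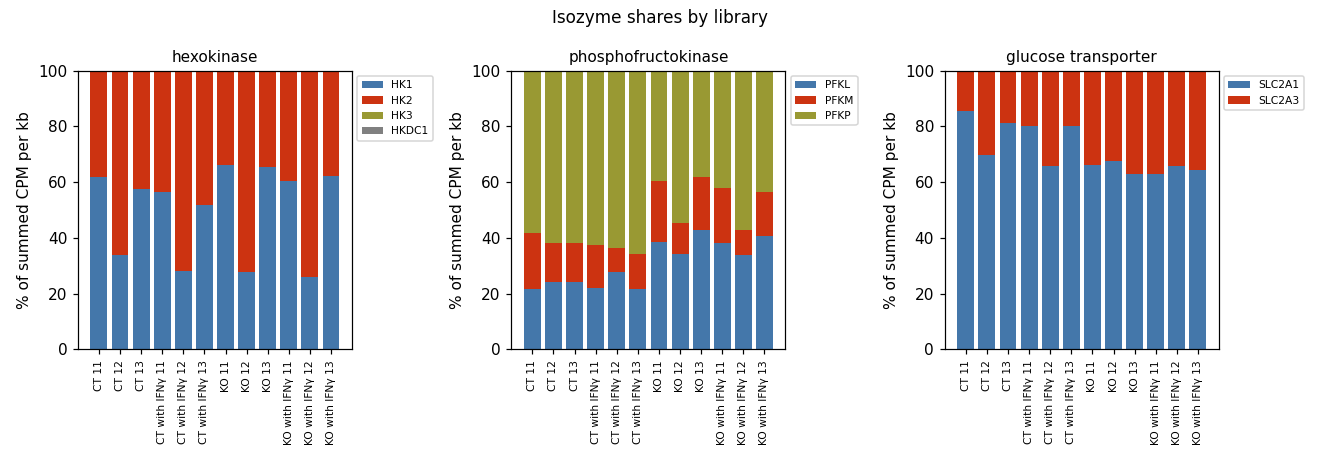
Share in percent of the summed CPM per kilobase of exon for hexokinases, phosphofructokinases and the 2 glucose transporters in each of the 12 libraries. HK2 (red) widens in each library numbered 12, to between 65.6% and 74.0%, and PFKL (blue) widens in KO.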

How the data were processed

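RNA-seq of HT1376 CT and FOXP3 KO cells was analysed from the deposited table of raw counts per gene in 12 libraries. Per the labels and the study's methods, the authors isolated total RNA with Trizol, made libraries with a KAPA kit after ribosomal depletion, sequenced 150-base pairs, removed Mycoplasma reads, aligned with STAR (version 2.7.11a in the submitters' processing notes) to GRCh38 with Ensembl 103, and counted with htseq-count. How strand and multi-mapping reads were handled is not given in the sources used here. Gene lengths and overlaps came from GENCODE 44 on GRCh38 and promoters from RefSeq.

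Counts were tested with edgeR 4.0.16 (quasi-likelihood, TMM) in R, genes with at least 10 counts in the libraries fitted, and Benjamini-Hochberg adjustment over all genes at 0.05. SE is the log2 fold change divided by the square root of F. Pairs of groups were fitted on 6 libraries, and the interaction and replicate number on 12. The scripts were tested on simulated data. Depth limits low genes, and p-values cover only these libraries.

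All 37 members are named. Values per library are given for ENO2, for at most 12 members called between lines with an absolute log2 fold change over 1, and for at most 6 called members with the smallest adjusted p each for IFNγ, interaction and replicate number. Of each list of other genes, at most 4 called between untreated lines with the largest change are named, and exceptions are stated. Members and lists were chosen with earlier results of these data known.

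Same-numbered libraries correlated in their deviations from group means at 0.152 to 0.168 in CT and 0.200 to 0.296 in KO. Different numbers reached at most -0.0294 in CT and -0.00308 in KO. The numbers were therefore taken to pair libraries within a line. Deviations within a group cancel out, which by itself lowers different-numbered values where same-numbered ones are high. Between untreated lines the correlation was 0.0525 to 0.151, and over genes with at least 100 counts 0.135 to 0.320. Different numbers there reached 0.0584 and 0.113. With IFNγ it was 0.0608 to 0.135 and 0.135 to 0.279, where different numbers reached 0.0763 and 0.157. Alternatives were DESeq2, other filters and scaling, a replicate block, all 12 libraries in 1 fit, leaving out libraries, and 3 chosen after seeing the data: no libraries numbered 12, thinned counts, and the block with bias-adjusted deviance.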

Additional observations from a re-analysis of the deposited data

How the results depend on the processing

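The replicate number called between 32 and 34 members when each library was left out, 33 by DESeq2 and 34 in the other fits. The line and IFNγ counts moved more. Shares of all genes are given only for the first edgeR fits, those with the replicate block and those without the libraries numbered 12. For KO against CT, untreated, the count of 0 higher and 4 lower became 1 and 4 with DESeq2 size factors, with filterByExpr or with thinned counts, 14 and 9 with no filter, 9 and 12 without the libraries numbered 12, and 12 and 9 with the replicate block, with 2 lower over an absolute log2 fold change of 1. With IFNγ, 0 and 2 became 9 and 10 with no filter, 8 and 12 without the libraries numbered 12, and 9 and 11 with the replicate block, with 1 lower over 1. For IFNγ in CT, 1 and 0 became 6 and 1 with no filter, 0 higher with all 12 libraries in 1 fit or over 1, 17 and 2 with the replicate block, 12 and 2 with the block and bias-adjusted deviance, 2 higher without the libraries numbered 12, and 1 lower with thinned counts. In KO, 0 higher became 5 with the replicate block, 1 with the block and bias-adjusted deviance and 2 without the libraries numbered 12. The interaction kept 0 members under all alternatives, none of which gave each line its own effect of the number. The cause was not tested. Whether the numbers pair libraries between the untreated lines depends on the count minimum of the pairing check, which was settled after calls had been seen. With IFNγ the values of same and different numbers overlapped at both minima.

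With each library left out in turn, the untreated line counts ranged from 0 to 7 higher and from 3 to 12 lower, those with IFNγ from 0 to 4 and from 2 to 12, and IFNγ in CT from 0 to 2 higher. The lowest and highest values below came from leaving out a library numbered 12, except the highest of LDHA, without KO library 11. Leaving out a single library numbered 12 leaves that of the other group unmatched. For untreated KO against CT the log2 fold change ranged from -2.67 to 0.14 for ANGPTL4, -1.27 to 0.47 for ENO2, -0.55 to 0.0473 for LDHA, -0.28 to 1.57 for P4HA1, -0.0734 to 2.15 for PDK1, -2.55 to 0.37 for PFKFB3 and -0.15 to 3.02 for PFKFB4. With IFNγ it ranged from -3.27 to 0.13 for ANGPTL4, -0.33 to 0.96 for DDIT4, -1.89 to 0.0102 for ENO2, -0.81 to 0.32 for GPI, -1.28 to 1.02 for HK2, -0.45 to 1.81 for PDK1 and -0.32 to 3.19 for PFKFB4, and HK2 was also -0.14 with the replicate block and -0.35 without the libraries numbered 12. For IFNγ in CT it ranged from -0.20 to 0.65 for ADM, -0.31 to 1.37 for ALDOC, -0.94 to 2.12 for ANGPTL4, -1.35 to 2.49 for ANKRD37, -0.44 to 0.84 for BNIP3L, -0.24 to 1.01 for ENO2, -0.29 to 1.53 for HK2, -0.45 to 1.19 for KDM3A, -0.076 to 1.08 for MXI1, -1.08 to 1.80 for NDRG1, -0.50 to 1.42 for P4HA1, -0.93 to 1.43 for PDK1, -0.98 to 1.48 for PFKFB3, -0.32 to 0.80 for PGK1 and -0.91 to 0.39 for SLC2A1. For IFNγ in KO it ranged from -0.55 to 1.08 for DDIT4, -0.17 to 0.44 for ENO1, -1.21 to 1.58 for HK2, -0.70 to 1.02 for SLC2A3 and -0.42 to 1.29 for VEGFA, and DDIT4, at -0.02 with all libraries, was 0.23 with the replicate block, 0.22 with the block and bias-adjusted deviance and 0.54 without the libraries numbered 12.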

Other observations

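The second row of ALDOA, which overlaps the gene on the same strand, had between 3.68 and 8.99 CPM in the 12 libraries, and its log2 difference between number 12 and the mean of 11 and 13 was 0.50 (SE 0.185, edgeR adjusted p = 0.18). Counts in pseudogene rows relative to their parent stayed at or under 1.74% for TPI1 and at or under 0.413% for GAPDH. For PGAM1, the mutase before enolase, 13 pseudogene rows held between 1.46% and 10.5% of the gene's own counts.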
